A study of Mus musculus with 6 samples.

Results

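The genes in question are 30 microvillus and brush border genes, chosen by symbol out of the 55849 rows of the count table, where each symbol occurred once. They fall into 5 role groups: 10 genes of the actin core, 4 membrane linkers, 6 myosins, 6 genes of the adhesion complex and its partners, and 4 apical enzymes. Of the 30, 29 had enough counts to be tested, among 16107 tested genes in all. Pdzk1 was the exception.

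Microvilli are the finger-like projections that cover the apical face of intestinal absorptive cells as a brush border. Each holds a bundle of parallel actin filaments that villin, espin and plastin tie together. Ezrin and class I myosins fasten the bundle to the membrane, and protocadherins at the tips link neighbouring microvilli through the intermicrovillar adhesion complex. The membrane carries digestive enzymes and transporters. In the colon the brush border belongs to the differentiated colonocytes of the upper crypt and surface.

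The RNA came from the descending colon of mice of 12 weeks, 3 libraries from Muc2-/- mice and 3 from wild-type C57BL/6 mice, none of them treated. Muc2 encodes the gel-forming mucin of colonic mucus. The labels describe neither the mutated allele nor the strain, sex or litter of the mutants, and each title names a single mouse. Most library names hold a pair of numbers and that of Muc2-/- 3 a single number. The names alone do not say whether animals were pooled. The titles also name crypts, while the protocols describe RNA taken from pieces of colon. Smooth muscle markers were abundant in every library, with Myh11 at 795, 231 and 448 CPM (counts scaled by library size) in Muc2-/- 1, 2 and 3, and at 4473, 2724 and 1254 CPM in wild-type 1, 2 and 3. Muc2 itself, as a check of the genotypes, had 757, 1021 and 942 CPM in Muc2-/- 1, 2 and 3, against 2480, 6977 and 2629 CPM in wild-type 1, 2 and 3 (log2 fold change -2.15, SE 0.47, edgeR adjusted p = 0.103). It was lower in all Muc2-/- libraries and still detected in each. Total counts lay between 16395432 and 20336459 a library. The 30 genes together took from 0.711% to 0.952% of the counts in Muc2-/- libraries and from 0.638% to 0.954% in wild-type libraries.

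The brush border transcripts differed greatly in level. On the deposited FPKM scale, which allows for gene length, the most abundant was Cdhr5, a mucin-like protocadherin, with a mean of 381 ± 76.9 FPKM in Muc2-/- and 297 ± 64.1 FPKM in wild-type (SD, n = 3 each). Ezr, which encodes ezrin, had 278 ± 118 FPKM in Muc2-/- and 307 ± 63.3 FPKM in wild-type. Slc9a3r1, an ezrin partner, had 226 ± 56.6 FPKM in Muc2-/- and 284 ± 87.3 FPKM in wild-type. Vil1, which encodes villin, had 266 ± 79.3 FPKM in Muc2-/- and 198 ± 50.6 FPKM in wild-type. Myo1a, the brush border class I myosin, had 267 ± 10.4 FPKM in Muc2-/- and 185 ± 81.7 FPKM in wild-type. Neighbours in this order, which is that of the mean over all libraries, differed in each genotype by less than the larger of their SDs. At the low end stood Anpep, Cdhr1, Plb1 and Pdzk1. Anpep, aminopeptidase N, is an abundant enzyme of the small intestinal brush border, and here it had 1.72 ± 0.284 FPKM in Muc2-/- and 2.00 ± 0.613 FPKM in wild-type. Cdhr1, a cadherin best known from photoreceptors, had 1.11 ± 0.156 FPKM in Muc2-/- and 0.976 ± 0.0574 FPKM in wild-type. Pdzk1, a PDZ scaffold of apical transporters, had only 3, 0 and 4 counts in Muc2-/- 1, 2 and 3, and 1, 2 and 2 counts in wild-type 1, 2 and 3, so no difference could be measured at this depth. The 0 in Muc2-/- 2 allows up to 0.198 CPM, counting error only.

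**Figure D1:**
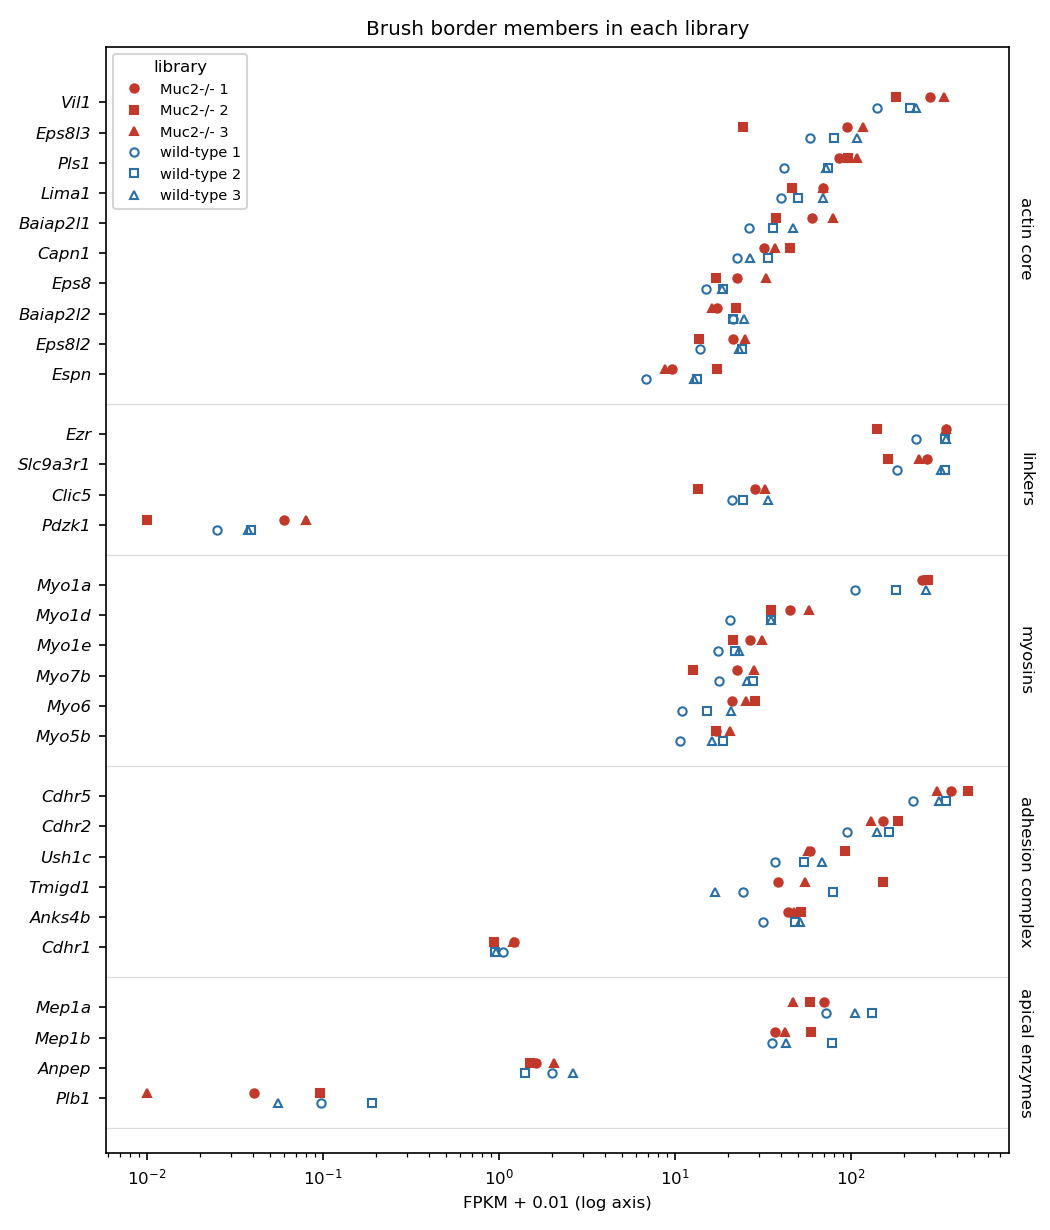
FPKM + 0.01 on a log axis for each of the 30 brush border genes in each library, by role group. Filled red symbols are the 3 Muc2-/- libraries and open blue symbols the 3 wild-type libraries, with 1 shape per replicate number. The groups overlap for most genes, and Pdzk1, Plb1, Cdhr1 and Anpep lie far below the rest.

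The main comparison asks which brush border transcripts differ in abundance when colon of the mucin mutants is set against that of wild-type mice. None of the 29 tested members passed an adjusted p of 0.05 in edgeR's quasi-likelihood test (Benjamini-Hochberg over all 16107 genes), where 20 genes or 0.124% passed in the whole table (0.106% higher and 0.0186% lower in Muc2-/-). DESeq2 also called 0 of 29, where it called 9.82% of the genes it tested. At an unadjusted p under 0.05 edgeR gave 3 of 29 members, 2 higher and 1 lower, beside 21.0% of all tested genes (8.23% higher and 12.7% lower). In CPM, 3 of 29 members had groups with no overlap, 2 with Muc2-/- above and 1 below, beside 28.5% of all tested genes (13.3% above and 15.2% below). Both shares of members were below the background. Member log2 fold changes ran from -1.46 to 0.99 with a median of 0.20, and the median of all tested genes was -0.01. In bulk tissue, fewer cells of a type and less RNA per cell cannot be told apart.

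**Figure D2:**
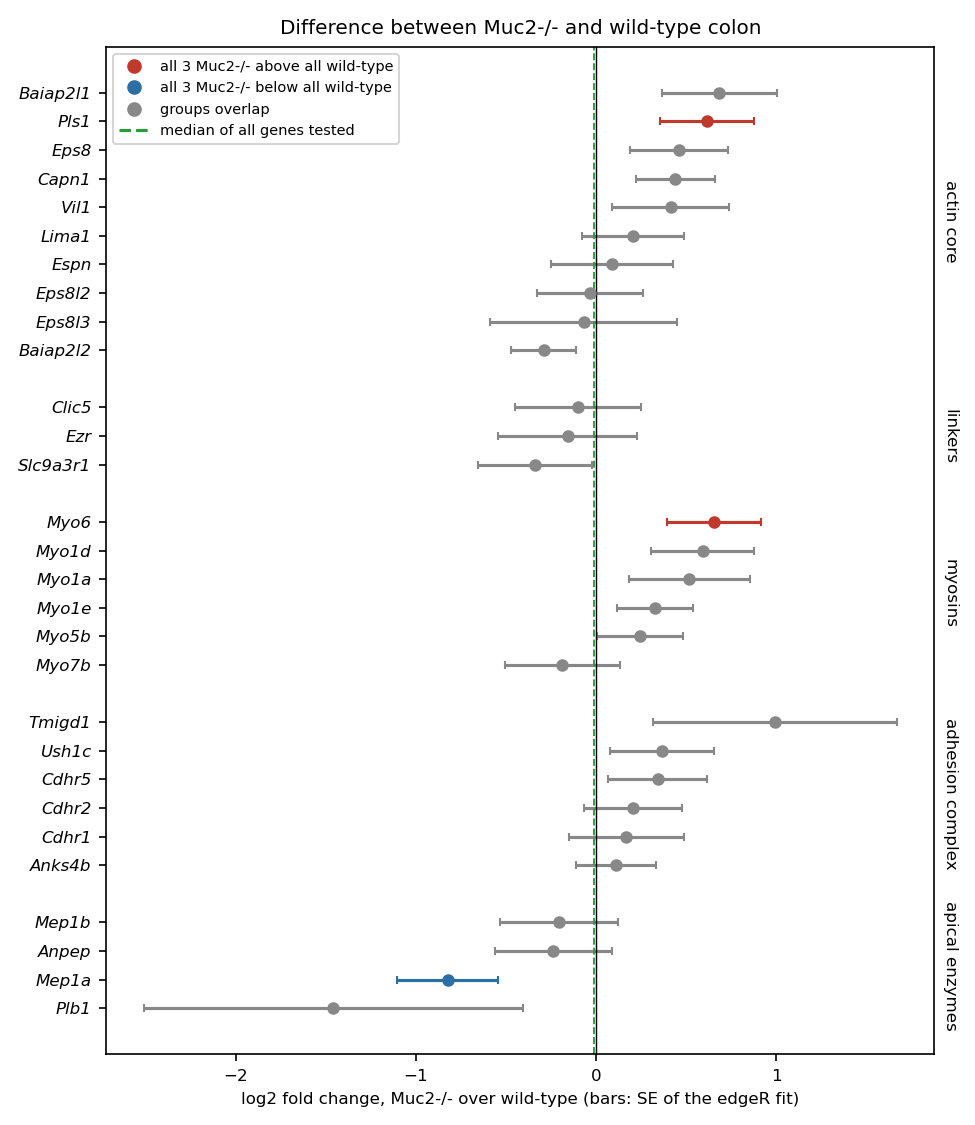
Log2 fold change of each tested brush border gene in Muc2-/- over wild-type colon, with the SE of the edgeR fit as bars, by role group. Red points (Pls1, Myo6) have all 3 Muc2-/- libraries above all wild-type libraries and the blue point (Mep1a) has them below; the dashed line is the median of all tested genes, -0.01.

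Mep1a, Pls1 and Myo6 were the members whose groups did not overlap. Mep1a encodes meprin alpha, a secreted or membrane-bound metalloprotease of the apical surface. It had 246, 199 and 161 CPM in Muc2-/- 1, 2 and 3, against 255, 460 and 358 CPM in wild-type 1, 2 and 3. Muc2-/- 1 and wild-type 1 came close to touching. The log2 fold change was -0.82 (SE 0.28, edgeR unadjusted p = 0.0188, adjusted p = 0.157), with every Muc2-/- library below every wild-type library. DESeq2 gave an adjusted p of 0.0789. Pls1, plastin 1, bundles the actin filaments of the core. Its level was 336, 369 and 420 CPM in Muc2-/- 1, 2 and 3, against 166, 292 and 277 CPM in wild-type 1, 2 and 3. The log2 fold change was 0.61 (SE 0.26, edgeR unadjusted p = 0.0477, adjusted p = 0.233). Myo6, a myosin that walks towards the base of the microvillus, had 255, 338 and 305 CPM in Muc2-/- 1, 2 and 3, against 136, 187 and 248 CPM in wild-type 1, 2 and 3. Its log2 fold change was 0.65 (SE 0.26, edgeR unadjusted p = 0.0378, adjusted p = 0.211). Wild-type 3 came within a few CPM of Muc2-/- 1.

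The sequence upstream of these 3 genes is shown because they were the members with no overlap of groups, though none of them was called. Each run gives the 250 bases before the RefSeq start in GRCm38.p6, 5′ to 3′ on the gene's strand, and capitals mark CAAAG or its reverse complement CTTTG, the core that HNF4 factors bind in enterocyte promoters.
Mep1a, chr17:43502774-43503023, minus strand: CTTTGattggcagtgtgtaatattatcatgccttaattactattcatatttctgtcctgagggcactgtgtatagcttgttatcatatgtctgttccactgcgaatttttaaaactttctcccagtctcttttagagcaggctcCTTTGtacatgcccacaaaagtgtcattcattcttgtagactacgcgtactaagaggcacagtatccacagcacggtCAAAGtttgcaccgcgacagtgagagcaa
Pls1, chr9:95845280-95845529, minus strand: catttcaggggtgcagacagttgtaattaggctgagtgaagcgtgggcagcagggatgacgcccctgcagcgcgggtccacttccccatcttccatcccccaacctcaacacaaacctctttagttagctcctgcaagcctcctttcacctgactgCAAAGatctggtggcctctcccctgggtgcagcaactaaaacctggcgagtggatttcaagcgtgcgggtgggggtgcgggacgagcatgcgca
Myo6, chr9:80164784-80165033, plus strand: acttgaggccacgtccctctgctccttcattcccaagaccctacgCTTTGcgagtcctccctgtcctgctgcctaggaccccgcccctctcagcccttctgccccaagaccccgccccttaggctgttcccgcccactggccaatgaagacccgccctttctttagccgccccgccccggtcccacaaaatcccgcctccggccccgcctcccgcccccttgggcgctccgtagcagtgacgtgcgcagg
Mep1a held 3 such cores, and Pls1 and Myo6 held 1 each. RefSeq promoter windows matched 24 of the 30 members, with 30 windows in all. CAAAG on either strand was found in 16 of these 30 windows (53.3%), beside 48.6% of all 32851 windows of that length. CATAAA on either strand, the core bound by CDX factors, was in 5 of the 30 (16.7%), beside 10.8% of all windows, and in none of the 3 printed runs. Base composition differed, with 41.6% G and C in the Mep1a run, 58.0% in that of Pls1 and 67.6% in that of Myo6.

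Among the 10 genes of the actin core, 7 had a positive and 3 a negative log2 fold change, with a median of 0.31 and 0 called. Vil1 had 1002, 629 and 1194 CPM in Muc2-/- 1, 2 and 3, against 513, 787 and 821 CPM in wild-type 1, 2 and 3. Muc2-/- 2 lay inside the wild-type range and the other mutants above it (log2 fold change 0.41, SE 0.32, edgeR adjusted p = 0.5). Eps8, which caps and bundles filaments at the microvillus tip, had 280, 208 and 404 CPM in Muc2-/- 1, 2 and 3, against 191, 235 and 224 CPM in wild-type 1, 2 and 3. Baiap2l1, an I-BAR protein that bends membrane and recruits EPS8, had 203, 123 and 266 CPM in Muc2-/- 1, 2 and 3, against 91.1, 123 and 154 CPM in wild-type 1, 2 and 3. It shared the arrangement of Vil1 and Eps8, with Muc2-/- 2 the lowest mutant and Muc2-/- 3 the highest library of all. Its log2 fold change was 0.68 (SE 0.32, edgeR adjusted p = 0.270), and with Muc2-/- 2 and wild-type 3 left out together it was 1.15 (adjusted p = 0.0265), the member called in that fit, where 15.4% of all tested genes were called. Capn1, a calcium-dependent protease that cuts cytoskeletal proteins, averaged 127 ± 20.2 CPM in Muc2-/- and 93.8 ± 19.4 CPM in wild-type. Lima1, a filament cross-linker, averaged 471 ± 108 CPM in Muc2-/- and 408 ± 106 CPM in wild-type.

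Espn, the bundling protein espin, had 80.0, 141 and 72.3 CPM in Muc2-/- 1, 2 and 3, against 58.5, 112 and 105 CPM in wild-type 1, 2 and 3. Here Muc2-/- 2 was the highest of the 6 libraries, the reverse of its place in Vil1. Baiap2l2, an I-BAR protein known from the intestinal epithelium, had 47.8, 59.7 and 44.1 CPM in Muc2-/- 1, 2 and 3, against 60.0, 59.2 and 66.3 CPM in wild-type 1, 2 and 3 (log2 fold change -0.29, SE 0.18, edgeR adjusted p = 0.396). Eps8l2 averaged 107 ± 31.6 CPM in Muc2-/- and 110 ± 28.8 CPM in wild-type. Eps8l3 averaged 179 ± 111 CPM in Muc2-/- and 188 ± 52.7 CPM in wild-type, and the large SD came from Muc2-/- 2, at 54.6 CPM beside 218 and 266 CPM in Muc2-/- 1 and 3. Its log2 fold change of -0.07 (SE 0.52, edgeR adjusted p = 0.955) was 0.38 without Muc2-/- 2 and 0.16 without wild-type 3.

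All 3 tested linkers had lower means in Muc2-/- and overlapping groups, with 0 called. Ezr had 1147, 458 and 1138 CPM in Muc2-/- 1, 2 and 3, against 795, 1144 and 1119 CPM in wild-type 1, 2 and 3. Muc2-/- 1 and 3 lay close to wild-type 2 and 3, and Muc2-/- 2 was the lowest library. The log2 fold change of Ezr was -0.16 (SE 0.38, edgeR adjusted p = 0.853), and it was 0.19 without Muc2-/- 2. Slc9a3r1 encodes NHERF1, the PDZ scaffold that ties ezrin to membrane proteins. It had 527, 308 and 469 CPM in Muc2-/- 1, 2 and 3, against 365, 669 and 619 CPM in wild-type 1, 2 and 3 (log2 fold change -0.34, SE 0.32, edgeR adjusted p = 0.572). Clic5, a chloride intracellular channel protein found with ezrin, averaged 240 ± 98.9 CPM in Muc2-/- and 257 ± 57.9 CPM in wild-type. Its log2 fold change was -0.10, and 0.22 without Muc2-/- 2.

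Of the 6 myosins, 5 had a positive log2 fold change and Myo7b a negative one, with a median of 0.42 and 0 called. Myo1a, which bridges the actin core to the membrane, had 955, 1002 and 1006 CPM in Muc2-/- 1, 2 and 3, against 406, 681 and 983 CPM in wild-type 1, 2 and 3. The mutants lay close together and the wild-type libraries were spread (log2 fold change 0.52, SE 0.34, edgeR adjusted p = 0.414). Myo1d, another class I myosin, had 294, 223 and 374 CPM in Muc2-/- 1, 2 and 3, against 137, 230 and 224 CPM in wild-type 1, 2 and 3 (log2 fold change 0.59, SE 0.29, edgeR adjusted p = 0.284). Myo1e, a long-tailed class I myosin, averaged 150 ± 29.1 CPM in Muc2-/- and 120 ± 14.0 CPM in wild-type. Myo5b, which carries recycling endosomes to the apical membrane and is mutated in human microvillus inclusion disease, averaged 178 ± 20.3 CPM in Muc2-/- and 150 ± 39.0 CPM in wild-type. Myo7b, the motor of the adhesion complex, had 152, 83.5 and 187 CPM in Muc2-/- 1, 2 and 3, against 123, 190 and 168 CPM in wild-type 1, 2 and 3. Its log2 fold change was -0.19 (SE 0.32, edgeR adjusted p = 0.777), and 0.10 without Muc2-/- 2.

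All 6 genes of the adhesion complex and its partners had a positive log2 fold change, with a median of 0.27, overlapping groups in each and 0 called. Beside this, 50.9% of all tested genes had a negative log2 fold change. Myo7b, the motor of the complex, was grouped with the myosins and had a log2 fold change of -0.19. The shared sign therefore depends on the grouping. The direction was not stable. Without wild-type 1 and Muc2-/- 2 the median was -0.068, with Cdhr2, Ush1c, Anks4b and Tmigd1 negative. Cdhr1 and Anks4b were negative with no composition factors, Anks4b was so without wild-type 1, and all 6 were negative with pan-epithelial counts as library size. Cdhr2 and Cdhr5 encode the protocadherins that bind each other between microvillus tips. Cdhr2 had 637, 749 and 539 CPM in Muc2-/- 1, 2 and 3, against 407, 694 and 570 CPM in wild-type 1, 2 and 3 (log2 fold change 0.20, SE 0.27, edgeR adjusted p = 0.706). Cdhr5 had 1028, 1243 and 845 CPM in Muc2-/- 1, 2 and 3, against 637, 973 and 849 CPM in wild-type 1, 2 and 3 (log2 fold change 0.34, SE 0.28, edgeR adjusted p = 0.513). Their order across libraries was almost the same, and their CPM ratio varied far less than either gene. Cdhr2 stood at 0.620, 0.602 and 0.638 of Cdhr5 in Muc2-/- 1, 2 and 3, against 0.640, 0.713 and 0.671 in wild-type 1, 2 and 3 (p = 0.1 in a two-sided exact permutation test, which cannot go lower with 3 against 3). This was 1 of 7 ratios compared, and the Benjamini-Hochberg value over them was 0.35. The groups parted only between 0.638 in Muc2-/- 3 and 0.640 in wild-type 1.

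The scaffolds of the complex varied somewhat more. Ush1c, which encodes harmonin, had 232, 360 and 224 CPM in Muc2-/- 1, 2 and 3, against 152, 217 and 265 CPM in wild-type 1, 2 and 3. Anks4b, an ankyrin repeat partner of harmonin and Myo7b, averaged 186 ± 13.3 CPM in Muc2-/- and 172 ± 38.7 CPM in wild-type. Both were highest in Muc2-/- 2, where Myo7b was lowest, so that Myo7b stood at 0.232 of Ush1c there, against 0.653 and 0.835 in Muc2-/- 1 and 3. Tmigd1, an immunoglobulin-domain adhesion protein of the epithelium, had the widest spread of the well-measured members. It had 58.1, 222 and 81.6 CPM in Muc2-/- 1, 2 and 3, against 37.4, 120 and 24.7 CPM in wild-type 1, 2 and 3. The highest library was 8.98 times the lowest, and the log2 fold change of 0.99 had an SE of 0.68 (edgeR adjusted p = 0.438).

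The 4 apical enzymes all had a negative log2 fold change, with a median of -0.53 and 0 called. The median was -0.25 under the stricter filter, which dropped Plb1, and -0.13 with log2(FPKM + 1). Mep1b, which encodes the membrane-anchored meprin beta, had 97.5, 153 and 110 CPM in Muc2-/- 1, 2 and 3, against 96.7, 209 and 111 CPM in wild-type 1, 2 and 3. Its groups overlapped (log2 fold change -0.21, SE 0.33, edgeR adjusted p = 0.758), and without wild-type 2 the log2 fold change of Mep1b was 0.21. The CPM ratio of Mep1a to Mep1b was 2.52, 1.3 and 1.46 in Muc2-/- 1, 2 and 3, against 2.64, 2.20 and 3.23 in wild-type 1, 2 and 3 (two-sided exact permutation p = 0.2, Benjamini-Hochberg value over the 7 ratios 0.35). Anpep averaged 7.07 ± 1.2 CPM in Muc2-/- and 8.33 ± 2.40 CPM in wild-type. Plb1, a brush border phospholipase of the small intestine, had 6, 15 and 0 counts in Muc2-/- 1, 2 and 3, against 19, 41 and 11 counts in wild-type 1, 2 and 3. Its log2 fold change of -1.46 rested on these few counts (SE 1.05, edgeR adjusted p = 0.464).

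Single libraries carried much of the spread among members. Wild-type 1 had the lowest CPM in 17 of the 29 tested members, while it was lowest in 22.2% of all tested genes. It had the largest sum of 16 smooth muscle markers, at 26007 CPM beside 15285 and 7346 CPM in wild-type 2 and 3, and the largest share of mitochondrially encoded counts, at 8.98%. Muc2-/- 2 was the lowest library for 7 members and the highest for 8, beside 30.8% and 27.7% of all tested genes, so these counts were no larger than in the whole table. Muc2-/- 3 was the highest for 10 members, beside 15.3% of all tested genes. In Muc2-/- 2, Eps8l3 was 4.43-fold below the mean of Muc2-/- 1 and 3, Ezr 2.50-fold, Clic5 2.32-fold and Myo7b 2.03-fold. These were the 4 of 29 members past 2-fold lower, beside 12.5% of all tested genes. Past 2-fold higher were Tmigd1, at 3.18-fold, and Plb1, on few counts, beside 6.51% of all tested genes. Espn was 1.85-fold higher, Ush1c 1.57-fold higher and Cdhr5 1.33-fold higher in the same library. In all, Muc2-/- 2 lay below both other mutants for 15 members and above both for 11, with 3 between. Beside this, 44.3% and 41.0% of all tested genes lay below and above.

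By role group, the 3 tested linkers in Muc2-/- 2 lay below both other mutants, as did 6 of the 10 actin core genes and 4 of the 6 myosins. In the adhesion complex 5 of 6 lay above both and Cdhr1 below. The apical enzymes were divided, with Anpep below, Mep1a between and Mep1b and Plb1 above. No difference between role groups was tested. Muc2-/- 2 also had the lowest share of mitochondrially encoded counts, at 1.04% beside 3.50% and 3.30% in Muc2-/- 1 and 3. Across all tested genes the rank correlation of gene length with the deviation from the mean library was -0.25 in Muc2-/- 2, beside -0.01 and 0.02 in Muc2-/- 1 and 3. It was 0.15, 0.09 and 0.04 in wild-type 1, 2 and 3, above every Muc2-/- library. The members below both mutants had a median gene length of 5377 bases, and those above both 3900 bases. The part of these library differences in the result was not tested.

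**Figure D3:**
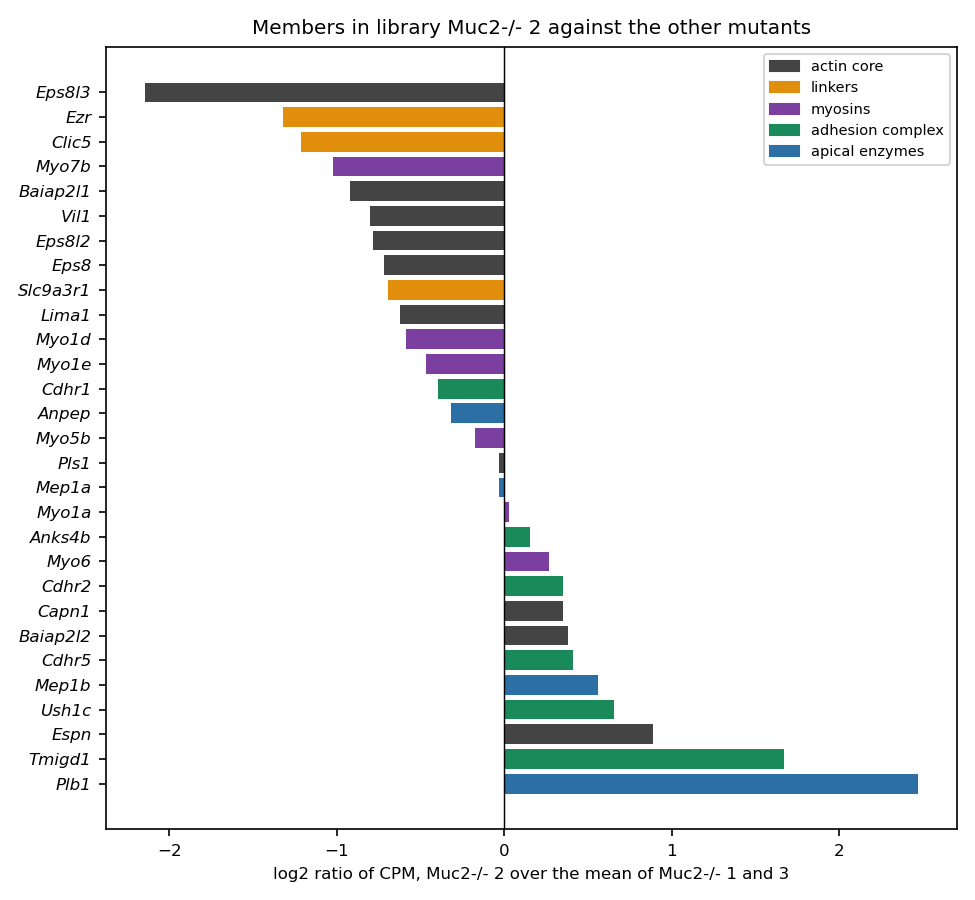
Log2 ratio of CPM in the library Muc2-/- 2 over the mean of Muc2-/- 1 and 3 for each tested brush border gene, as bars coloured by role group. Linkers (orange) point left and most adhesion complex genes (green) right, from Eps8l3 at -2.15 to Plb1 at 2.47, and Plb1 has few counts.

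Several marker lists had summed CPM that stood apart between the groups, though the exact permutation test cannot give a p under 0.1. In all, 7 lists were compared by their summed CPM, including the further brush border list given below. By share of counts, the planned measure, the smallest Benjamini-Hochberg value of that test over the 7 lists was 0.233. The summed CPM of 20 pan-epithelial markers was 31638, 47796 and 32308 in Muc2-/- 1, 2 and 3, against 13885, 21405 and 26310 in wild-type 1, 2 and 3 (ratio of means 1.81, exact permutation p = 0.1, Benjamini-Hochberg value over the 7 lists 0.14). Krt8, Krt19 and Lgals4 made up 64.5% of that sum. Of its 19 tested genes 18 had a positive log2 fold change and 0 were called. At an unadjusted p under 0.05 in edgeR 7 of them were higher, beside 8.23% of all tested genes. Smooth muscle markers summed to 5622, 5831 and 3101 CPM in Muc2-/- 1, 2 and 3, against 26007, 15285 and 7346 CPM in wild-type 1, 2 and 3 (p = 0.1 by the same exact test). The sum of the 30 brush border genes averaged 9078 ± 868 CPM in Muc2-/- and 7911 ± 1833 CPM in wild-type, a ratio of 1.15. The summed CPM of 17 absorptive colonocyte markers had a ratio of 1.26 and overlapping groups (exact permutation p = 0.3). Lypd8 alone averaged 11487 CPM of it in Muc2-/- and 7534 CPM in wild-type. The colonocyte list was divided, with 11 positive and 6 negative log2 fold changes, from -2.21 to 1.24. For Slc26a3 and Aqp8 every Muc2-/- library lay below every wild-type library, and for Krt20 and Tmem37 above. The mean log2 CPM of that list, which weights its genes equally, was 9.16 ± 0.16 in Muc2-/- and 9.15 ± 0.38 in wild-type (exact permutation p = 1), and its median log2 fold change of 0.20 was that of the brush border genes. The goblet cell sum ranged from 18057 to 26885 CPM in Muc2-/- and from 3213 to 17909 CPM in wild-type, and the leukocyte sum from 1577 to 2239 CPM in Muc2-/- and from 373 to 1006 CPM in wild-type (exact p = 0.1 for each). The goblet cell groups were nearly touching. As a share of counts they overlapped, with 1.76% in Muc2-/- 3 and 1.85% in wild-type 3 (exact permutation p = 0.2). Jchain and Cd74 averaged 886 and 852 CPM of the leukocyte sum in Muc2-/-, and 180 and 258 CPM in wild-type. Jchain was called (log2 fold change 2.30, edgeR adjusted p = 0.0286), the only called gene of the leukocyte list. Of the 17 tested leukocyte genes, 13 had overlapping groups. The other 4 (23.5%) had Muc2-/- above, beside 28.5% of all tested genes with no overlap in either direction and 13.3% with Muc2-/- above. The mean log2 CPM of the leukocyte list was 4.43 ± 0.44 in Muc2-/- and 3.42 ± 0.90 in wild-type (exact permutation p = 0.3). Fibroblast markers summed to 662 to 905 CPM in Muc2-/- and 768 to 1626 CPM in wild-type (exact p = 0.2). The part of these markers in the members' values was not tested.

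**Figure D4:**
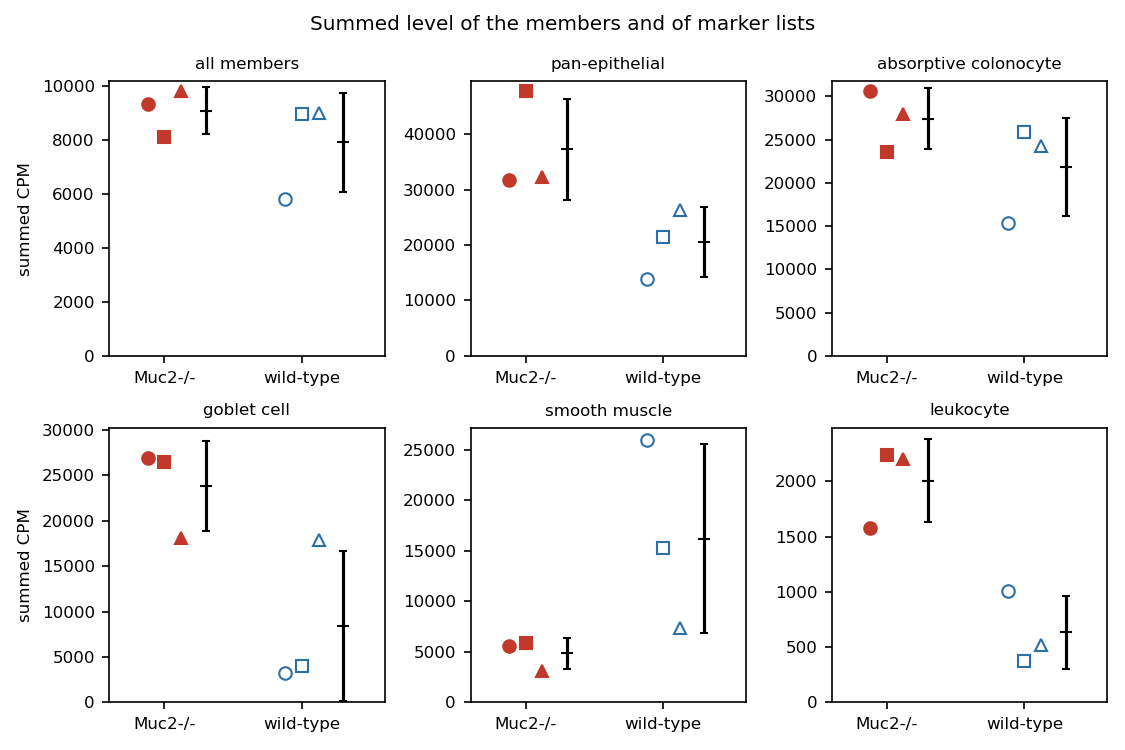
Summed CPM of the 30 brush border genes and of 5 marker lists in each library, with Muc2-/- left and wild-type right. Symbols are libraries, and bars give the mean and SD of 3. Pan-epithelial, goblet cell and leukocyte sums are higher and the smooth muscle sum lower in all Muc2-/- libraries, while the brush border sums overlap. The goblet cell groups are parted only narrowly, and they overlap as a share of counts.

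Set against the pan-epithelial sum, all 29 tested members had a ratio of means under 1, with a median of 0.629, and in 15 of 29 every Muc2-/- library lay below every wild-type library, beside 56.0% of all tested genes on this scale. The lowest ratio was that of Plb1 and the next that of Mep1a. Mep1a had 7.78, 4.17 and 4.98 counts per 1000 pan-epithelial counts in Muc2-/- 1, 2 and 3, against 18.4, 21.5 and 13.6 in wild-type 1, 2 and 3. Slc9a3r1 had 16.7, 6.45 and 14.5 in Muc2-/- 1, 2 and 3, against 26.3, 31.2 and 23.5 in wild-type 1, 2 and 3. Baiap2l2 had 1.51, 1.25 and 1.36 in Muc2-/- 1, 2 and 3, against 4.32, 2.76 and 2.52 in wild-type 1, 2 and 3. In these genes the groups were apart. Ush1c was the steadiest, with 7.35, 7.52 and 6.94 in Muc2-/- 1, 2 and 3, against 10.9, 10.1 and 10.1 in wild-type 1, 2 and 3. The ratio of means was nearest to 1 for Tmigd1, at 0.975 beside 1.99 in CPM, and for Baiap2l1, at 0.947 beside 1.61 in CPM.

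With that sum as the library size, edgeR gave Mep1a a log2 fold change of -1.66 (adjusted p = 0.0259) and Baiap2l2 one of -1.22 (adjusted p = 0.0467), the members called, where 10.4% of all tested genes were called. This scale moved the median of all tested genes to -0.91, and the members' median of -0.67 was above it, as on the CPM scale. With the 3 most abundant markers taken out of the sum, a choice made after seeing the data, 0 members were called, and the median was -0.42. With the absorptive colonocyte sum as the scale, likewise chosen afterwards, it was -0.16, with 0 members called. Mep1a kept a negative log2 fold change in all 21 alternative fits, from -1.66 to -0.60. Slc9a3r1 and Baiap2l2 also stayed negative in all 21, and Plb1 in the 17 that held it. These fits reuse the same libraries.

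**Figure D5:**
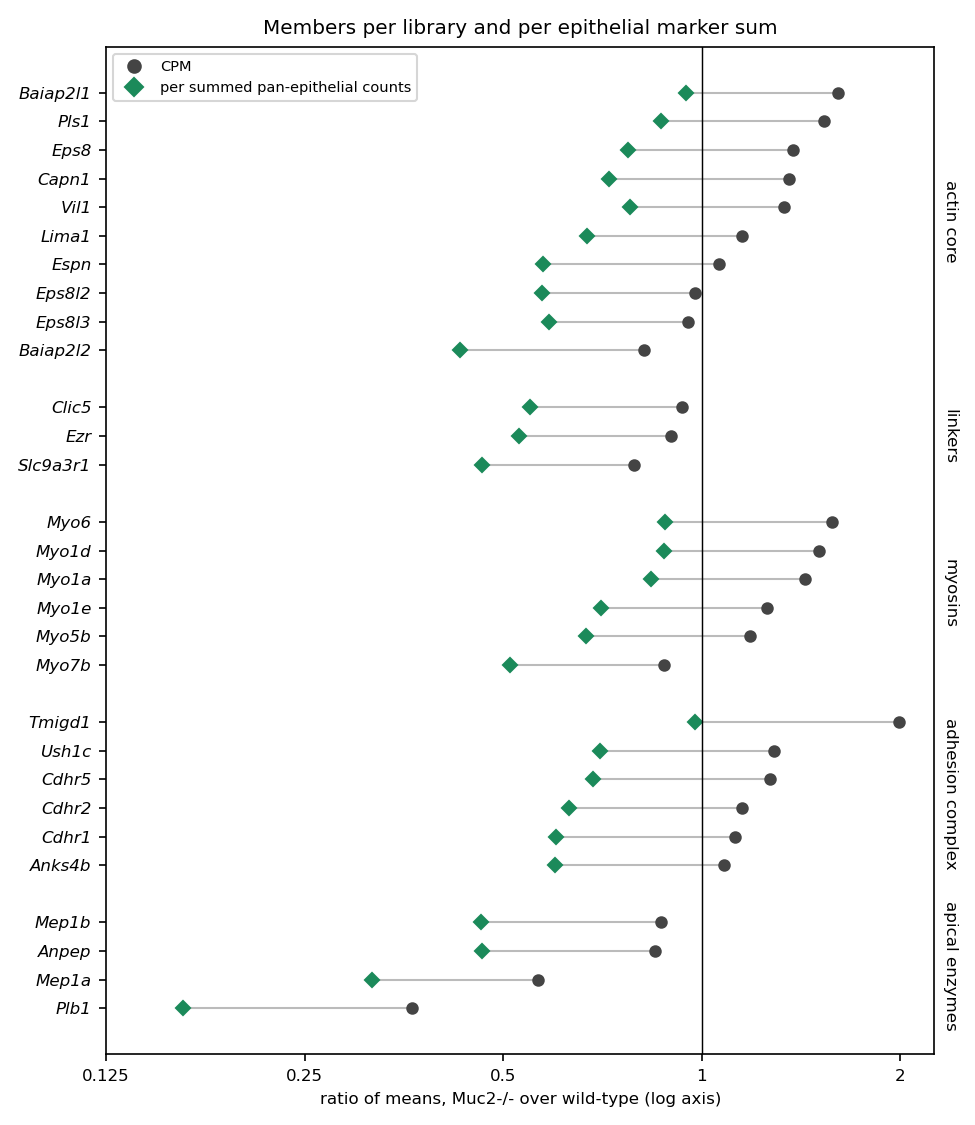
Ratio of means, Muc2-/- over wild-type, for each tested brush border gene on a log axis, from CPM (dark circles) and per summed pan-epithelial counts (green diamonds). Every diamond lies left of 1, with Mep1a at 0.317 and Tmigd1 at 0.975, whereas 18 of 29 circles lie right of it.

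A further list of 46 brush border genes, which shares no gene with the 30, had 42 tested genes. None was called in edgeR, and the median log2 fold change was 0.09. At an unadjusted p under 0.05 in edgeR, 6 were higher and 6 lower, together 28.6% of the 42. Beside this stood 21.0% of all tested genes, 8.23% higher and 12.7% lower. In 16 of the 42 the CPM of the groups stood apart, 11 with Muc2-/- above and 5 below, beside 13.3% above and 15.2% below in all tested genes. Its most abundant genes had overlapping groups but for Cdh17, liver-intestine cadherin, at 1067, 747 and 1202 CPM in Muc2-/- 1, 2 and 3, against 426, 665 and 675 CPM in wild-type 1, 2 and 3 (log2 fold change 0.77, edgeR adjusted p = 0.197). Myo15b had 1095 ± 57.1 CPM in Muc2-/- and 895 ± 165 CPM in wild-type, and Myh14, a non-muscle myosin II, had 1336 ± 405 CPM in Muc2-/- and 833 ± 233 CPM in wild-type. Actn4, alpha-actinin 4, had 899 ± 452 CPM in Muc2-/- and 591 ± 65.8 CPM in wild-type. Gpa33, an epithelial surface antigen, had 633 ± 284 CPM in Muc2-/- and 558 ± 172 CPM in wild-type, and Slc9a3, the apical sodium-hydrogen exchanger NHE3, had 389 ± 84.6 CPM in Muc2-/- and 530 ± 158 CPM in wild-type. DESeq2 called 8 of the list, beside 9.82% of all genes it tested, and these are named here after their values were seen. Rab11a, a recycling endosome GTPase that works with Myo5b, was higher in Muc2-/-, as were Vill and Xpnpep2. The peptidase genes Enpep and Naaladl1 were lower, as were Rdx, Tmem252 and Tm4sf5. Enpep, aminopeptidase A, had 4.76, 4.69 and 4.39 CPM in Muc2-/- 1, 2 and 3, against 28.3, 26.3 and 6.53 CPM in wild-type 1, 2 and 3 (log2 fold change -2.14, SE 0.52, edgeR adjusted p = 0.103). Wild-type 3 lay much nearer to the Muc2-/- libraries than the other wild-type libraries did.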

How the data were processed

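Polyadenylated RNA of descending colon was sequenced with paired-end reads. The authors deposited whole-number counts per gene, not normalized, and FPKM. Per the submitters' processing notes the build was mm10 and the tools included featureCounts 1.5.0-p3, HISAT2 2.0.5, DESeq2 1.20.0 and StringTie 1.3.3b, whose roles are not stated. No source says whether counting used strand, so reads of a gene and an antisense partner may be mixed. The deposited FPKM equal counts per listed gene length and per library total scaled by DESeq2 size factors. None of the 30 members had the start and end of GENCODE M21, whose build is mm10, and 28 had the same width, so no gene coordinates of the count table are printed. Printed sequences are from RefSeq, build GRCm38.p6.

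Groups were read from the sample titles. Counts were fitted with edgeR 4.0.16 in R 4.3.3 (TMM, default filter with a minimum count of 10 and total of 15, quasi-likelihood test, genotype alone). For CPM, library size was the TMM-scaled total of tested genes. Each SD is over 3 libraries. A p-value here reflects library-to-library spread, part of which may be technical. A floor is 3 counts and covers only counting error. Replicates differed by a chi-square of 25.0 to 148 per degree of freedom and were all kept. The members, lists and tests were chosen with earlier results of these data known. All members are named, with Muc2, the most abundant genes of the further brush border list and leading markers. Rows with a gene ID but no symbol held 0.168% of the counts and were kept.

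Alternatives were RLE or no composition factors, other filters, DESeq2 1.42.0, limma 3.58.1 on counts (voom) or log2(FPKM + 1) and log2(FPKM + 0.1), a replicate block, marker sums as library size, and libraries left out. In simulated counts for this comparison (15773 genes tested), the procedure recovered 10.9% of 64 genes changed 2-fold and 83.6% of 73 changed 4-fold. Of its 142 calls 11 were false. The simulation drew each gene independently around a common mean, without the shifts shared by many genes within a library, and changed no genes of low level. Recovery in the real libraries may therefore be lower. There Muc2, with a log2 fold change of -2.15, was not called (edgeR adjusted p = 0.103).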

Additional observations from a re-analysis of the deposited data

How the results depend on the processing

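The absence of called members held in edgeR with TMM, RLE or no composition factors, with other filters and with each library left out, and in DESeq2, voom, limma on FPKM and the replicate block. Exceptions were the pan-epithelial library size, with 2 lower, and wild-type 3 left out with Muc2-/- 2, with 1 higher. In most of the fits few genes of any kind were called, so an absence of called members was likely from the start. The share of all tested genes called was 0.124% with TMM, 0.168% with RLE and 0.0497% with no composition factors. It was larger with no filter (4.47%), the replicate block (4.18%), wild-type 3 left out (7.3%) and DESeq2 (9.82%). Depth limited Pdzk1 and Plb1 most.

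Counts of called genes over the whole table also depended on the setting. Called genes numbered 384 higher and 815 lower with no filter, 614 higher and 1253 lower in DESeq2, 37 higher and 9 lower with limma on log2(FPKM + 1), 31 higher and 8 lower on log2(FPKM + 0.1), 3 higher and 0 lower with no FPKM minimum, 7 higher and 1 lower with no composition factors and 98 higher and 54 lower when the threshold on the adjusted p was 0.1. RLE factors gave 5 lower and voom 11 higher. The further brush border list had 1 higher and 4 lower with no filter, 3 and 5 in DESeq2, and 2 and 5 without wild-type 3 and Muc2-/- 2. The causes were not tested.

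The labels name no pairing, and the main fit used none. After centring within each group, same-numbered libraries had correlations of 0.09, 0.28 and 0.06. With 3 libraries a group, these values cannot show whether the numbers pair the samples. With the replicate block there were 225 higher and 448 lower, with 1 higher and 2 lower in the further list and 0 members.

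Leaving out 1 library gave 0 to 272 genes higher and 0 to 954 lower, the largest numbers without wild-type 3 and 0 without wild-type 2. In the further list it gave 0 to 1 higher and 0 to 2 lower. Log2 fold changes that changed sign ran for Espn from -0.25 to 0.28, Eps8l2 from -0.24 to 0.21, Eps8l3 from -0.46 to 0.38, Ezr from -0.35 to 0.19, Clic5 from -0.33 to 0.22, Myo7b from -0.44 to 0.10, Anks4b from -0.068 to 0.23 and Mep1b from -0.41 to 0.21.

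Without wild-type 1 and Muc2-/- 2, 1 higher and 0 lower were called, the adhesion complex median was -0.068, and Espn -0.51, Eps8l3 0.18, Ezr 0.011, Clic5 0.072, Cdhr2 -0.11, Ush1c -0.081, Anks4b -0.12 and Tmigd1 -0.054 had the opposite sign. Without wild-type 3 and Muc2-/- 2, 901 higher and 1642 lower were called, the actin core median was 0.62, and Espn -0.15, Eps8l2 0.28, Eps8l3 0.61, Ezr 0.26, Clic5 0.42, Myo7b 0.14, Tmigd1 -0.16 and Anpep 0.11 had the opposite sign. With no composition factors the signs of Espn -0.11, Cdhr1 -0.014 and Anks4b -0.074 turned. The apical enzyme median was -0.13 with log2(FPKM + 1), with or without the minimum.

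Scalings shift all genes, so values are to be read against the medians over all genes, which were -0.20 with no composition factors, -0.91 with pan-epithelial counts as library size, -0.65 with the same without its 3 largest genes and -0.40 with absorptive colonocyte counts. The last pair of scalings was chosen after seeing the data. The pan-epithelial size called 57 higher and 1645 lower, 6 of them lower in the further list. Its medians were -0.67 for all members, -0.52 for the actin core, -0.92 for linkers, -0.38 for myosins, -0.61 for the adhesion complex and -1.39 for enzymes, and these signs turned: Vil1 -0.36, Espn -0.80, Pls1 -0.21, Eps8 -0.37, Baiap2l1 -0.079, Lima1 -0.58, Capn1 -0.46, Myo1a -0.26, Myo1d -0.19, Myo1e -0.51, Myo6 -0.19, Myo5b -0.58, Cdhr2 -0.67, Cdhr5 -0.55, Cdhr1 -0.73, Ush1c -0.51, Anks4b -0.74 and Tmigd1 -0.036. Without the 3 largest genes it called 1 higher and 0 lower, with medians, in the same order, of -0.42, -0.28, -0.68, -0.15, -0.35 and -1.13, and these turned: Vil1 -0.13, Espn -0.56, Eps8 -0.12, Lima1 -0.35, Capn1 -0.20, Myo1a -0.044, Myo1e -0.26, Myo5b -0.34, Cdhr2 -0.42, Cdhr5 -0.29, Cdhr1 -0.46, Ush1c -0.27 and Anks4b -0.50. The colonocyte size called 110 higher and 850 lower, 5 of them lower in the further list, with medians of -0.16 for all members, -0.048 for the actin core, 0.092 for myosins and -0.035 for the adhesion complex, and these turned: Espn -0.16, Lima1 -0.16, Myo1e -0.047, Myo5b -0.077, Cdhr2 -0.099, Cdhr1 -0.26 and Anks4b -0.20.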
